A study of Mus musculus with 14 samples.

Results

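Th2 cells are helper T cells known for interleukins 4, 5 and 13, and here they were compared at 12 h and 4 h of stimulation on 4 of the 14 arrays of the study. The 4 arrays were chosen by their labels. They carried RNA from Th2 cells infected with an empty retroviral vector (vector only) or with a retrovirus carrying dominant negative (DN) Trpm4, each at 12 h and at 4 h. The study inhibited Trpm4, a plasma membrane channel that calcium opens and that passes monovalent cations, in Th1 and Th2 cells, by siRNA or by the DN retrovirus, and measured transcripts on mouse Affymetrix arrays. All cells had been polarised for 2 weeks. The labels name neither the mouse strain, the stimulus nor the share of infected cells, and do not say whether RNA came from 1 culture or several. Each condition was 1 array, so there were no replicates, and the vector pair and the DN Trpm4 pair (12 h minus 4 h in each) stood in as the 2 pairs. The p-values and SE therefore rest on how far the 2 pairs differed, pooled mostly over all tested probe sets. A gene's own 2 pairs carry little weight in them. The spread may be technical, and any effect of the DN virus that changes with time counts as spread.

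As background, a helper T cell that meets its stimulus transcribes immediate early factors (Fos, Egr and Nr4a families) and cytokine genes within hours, through calcium, NFAT and NF-kappaB signalling, and feedback inhibitors then limit them. Transcripts of metabolism, ribosomes and DNA replication follow as the cell leaves G1 phase. Cells that secrete large amounts of protein also use the unfolded protein response, in which ATF6 and XBP1 raise chaperones and folding enzymes of the endoplasmic reticulum (ER).

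Trpm4 read 7.27 on the vector array and 7.06 on the DN Trpm4 array at 12 h, and 6.90 and 7.0 at 4 h, in log2 units of normalised signal plus 16. No excess of Trpm4 signal on the arrays labelled DN Trpm4 was therefore seen, and details of what the probe set detects of the retroviral construct are not given in the sources used here. At 12 h the Th1 arrays read 6.62 with vector and 9.21 with DN Trpm4, and at 4 h they read 6.35 and 6.95. The Gapdh control probe sets showed 3′ signal above 5′ signal by 5.64 to 6.07 log2 units on the 4 arrays, against -0.36 to 0.06 on the 8 arrays of untreated, siRNA-treated and 12 h Th1 cells. The beta-actin control stood at 3.91 to 4.92 against 0.04 to 0.51, while the transferrin receptor control stood at 1.70 to 2.12 against 1.23 to 2.15, which overlap. The Th1 arrays at 4 h shared the excess, at 5.80 (vector) and 5.98 (DN Trpm4) for Gapdh and 4.54 and 4.51 for beta-actin. Of the Th2-associated genes fixed as markers, 11 of 12 were tested, and their summed signal was 25767 and 29433 at 12 h (vector, DN Trpm4) and 29085 and 21399 at 4 h. The Th1 markers summed to 8452 to 9367, of which Cxcr6 alone gave most, and the other 8 summed to 3498 to 4078. B cell markers summed to 216 to 265, with 6 of 11 below the array median on all 4 arrays. Macrophage and dendritic cell markers summed to 2192 and 1805 at 12 h and 2475 and 2909 at 4 h. Ctss alone gave most of each sum, and the other 19 summed to 556 and 451 at 12 h and 554 and 490 at 4 h. Of the 20, 9 were below the median on all 4 arrays, and of the 10 tested the Fc receptor Fcgr3 alone passed the test, with a fall of 1.40. Fcgr3 lay below the median on both 12 h arrays (4.30 and 4.46), so it was tested through its 4 h signal alone. Markers of CD8 T and natural killer cells summed to 307 to 425, with 7 of 12 below the median. Markers of mast cells, basophils and eosinophils summed to 241 to 293, with 13 of 16 below the median on all 4 arrays, erythroid markers to 103 to 120, with 6 of 8 below, and fibroblast markers to 391 to 457, with 15 of 20 below. Treg and Th17 markers summed to 464 to 581, with 2 of 7 below. Pan T cell markers summed to 12867 and 13664 at 12 h and to 16419 and 17685 at 4 h. None of the 10 tested pan T cell markers passed the test (0 called; the limma p-values were adjusted with Benjamini-Hochberg), 5 were lower at an unadjusted p under 0.05, and up to 4 passed under other settings.

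Between 4 h and 12 h, 935 probe sets rose and 1193 fell among 23194 tested, which is 4.03% and 5.14% (limma with virus as a block, two-sided, Benjamini-Hochberg adjusted p under 0.05). These stand for 646 genes higher and 793 genes lower at 12 h. Akap7, Aqp11 and Ripor2 are in both counts because their probe sets disagreed. Of 811 called genes with several tested probe sets, 667 had all of them in the same direction. Other probe sets of a named gene are not given in every case. Most changes were below 2-fold: 1504 of the 2128 called probe sets (70.7%) had a mean log2 difference between -1 and 1, and the smallest called difference was 0.63. A stricter description with no variance estimate, at least 2-fold in the same direction in both pairs, held 115 probe sets higher (0.496%) and 224 lower (0.966%). Over all probe sets the differences of the 2 pairs had Pearson's r 0.557 and Spearman's rho 0.463, a description across probe sets, which are not independent and share their normalisation. The balance of rises and falls depended on scaling: 43.9% of the called probe sets were higher at 12 h after quantile normalisation, 32.2% (672 higher, 1415 lower) with median centring and 29.6% (666 higher, 1585 lower) with the deposited signal as it stood. Without the Th2 DN Trpm4 4 h array, 359 rose and 592 fell. With 2 arrays against 2, an exact permutation test of a single gene cannot give a two-sided p below 0.333, so the calls rest on the variance shared across probe sets.

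**Figure D1:**
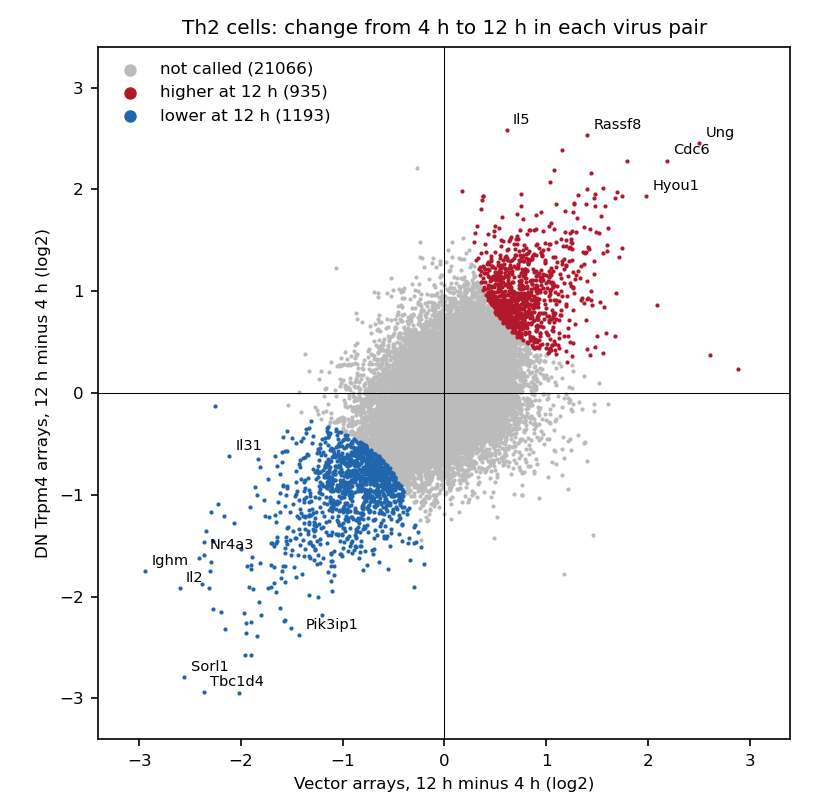
Each point is 1 of 23194 probe sets, with the log2 difference between 12 h and 4 h in the vector arrays on the x axis and in the DN Trpm4 arrays on the y axis. Red points (935) were called higher at 12 h, blue points (1193) lower, and grey points did not pass; Ung and Cdc6 lie near the diagonal at the upper right, while Il5 (0.61 and 2.58) and Il31 (-2.11 and -0.62) differ between the pairs.

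The gene with the largest rise was Ung, the uracil-DNA glycosylase that removes uracil from newly made DNA. Ung read 10.53 (vector) and 10.75 (DN Trpm4) at 12 h and 8.03 and 8.29 at 4 h. The 2 times did not overlap, and the difference was 2.48 ± 0.19 (SE), a 5.57-fold rise (limma adjusted p = 3.8e-05). Cdc6, which loads the replicative helicase onto origins, read 9.48 and 9.38 at 12 h against 7.30 and 7.10 at 4 h (2.23, adjusted p = 6.9e-05). The ER chaperone Hyou1 read 10.90 and 10.87 against 8.92 and 8.94 (1.96, adjusted p = 8.9e-05). The pairs of Hyou1 were close (1.98 and 1.94), but its other probe sets moved by 0.54 and 0.45. The disulfide isomerase Pdia5 rose by 1.84 and Shmt1, an enzyme of folate-linked one-carbon metabolism, by 1.72, with the other Shmt1 probe sets at 0.28 and 0.48. The steroid-metabolising enzyme Akr1c18 rose by 1.80, from 10.94 and 10.37 to 12.38 and 12.53. Among secreted and adhesion products, the chemokine Ccl9 rose by 1.70, the cadherin Cdh17 by 1.69, the matrix protein Npnt (nephronectin) by 1.78 and Ambn (ameloblastin) by 1.77. Other probe sets stood at 0.65 for Ccl9 and at 0.50 and 1.57 for Npnt. The other genes among the 15 largest rises were 3110082I17Rik (2.04), Rassf8 (1.97), Akap6 (1.84), Arhgap6 (1.79) and Hivep3 (1.71). Their other probe sets stood at 0.33 for Rassf8, 0.49 for Akap6, 1.63 and 0.36 for Arhgap6, and 0.14, 0.10, -0.10 and 0.99 for Hivep3. Npnt and Ambn were dim at 4 h, near the floor of 4, where the added 16 understates a fold change. Npnt, Ambn, Akap6 and Pdia5 lay below the array median of 5.39 on both 4 h arrays. They were tested only because they were brighter at 12 h, so their direction is tied to the filter.

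The largest fall was that of Sorl1, a sorting receptor of the trans-Golgi and endosomes. Sorl1 read 6.55 and 6.57 at 12 h and 9.10 and 9.36 at 4 h, a difference of -2.67 ± 0.19 (SE), and its level at 4 h was 6.38-fold that at 12 h (limma adjusted p = 3.8e-05). The Rab GTPase-activating protein Tbc1d4 read 6.15 and 6.10 against 8.51 and 9.04 (-2.65, adjusted p = 3.8e-05), and the ganglioside enzyme St8sia1 5.54 and 5.20 against 7.56 and 8.14 (-2.48). Interleukin 2, the T cell growth factor, read 6.03 and 5.77 at 12 h and 8.63 and 7.69 at 4 h (-2.26, adjusted p = 7.7e-05). Several of these falls belong to genes of energy use: the acetyl-CoA synthetases Acss1 (-2.24) and Acss2 (-2.10), the glycogen phosphorylase Pygl (-2.20) and the transketolase-like Tktl1 (-2.06). Others are known to restrain growth: Pdcd4, a translation inhibitor, fell by 2.08, and Mxd4, a Max-binding antagonist of Myc, by 2.15, although 1 of the other 3 Mxd4 probe sets stood at 0.05. The remaining genes among the 15 largest falls were Ypel3 (-2.27), the kinase Dapk2 (-2.17), the small GTPase Rrad (-2.13), the interleukin 18 receptor chain Il18r1 (-2.12) and Ighm. The immunoglobulin mu transcript Ighm read 5.22 and 5.28 at 12 h and 8.16 and 7.03 at 4 h (-2.34). The B cell markers summed to 265 and 245 at 12 h and 216 and 236 at 4 h, and their part in the fall of Ighm was not tested. Acss1, Acss2, Dapk2, Tktl1 and Ighm lay below the array median of 5.39 on both 12 h arrays. They were tested only because they were brighter at 4 h, so their direction is tied to the filter.

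**Figure D2:**
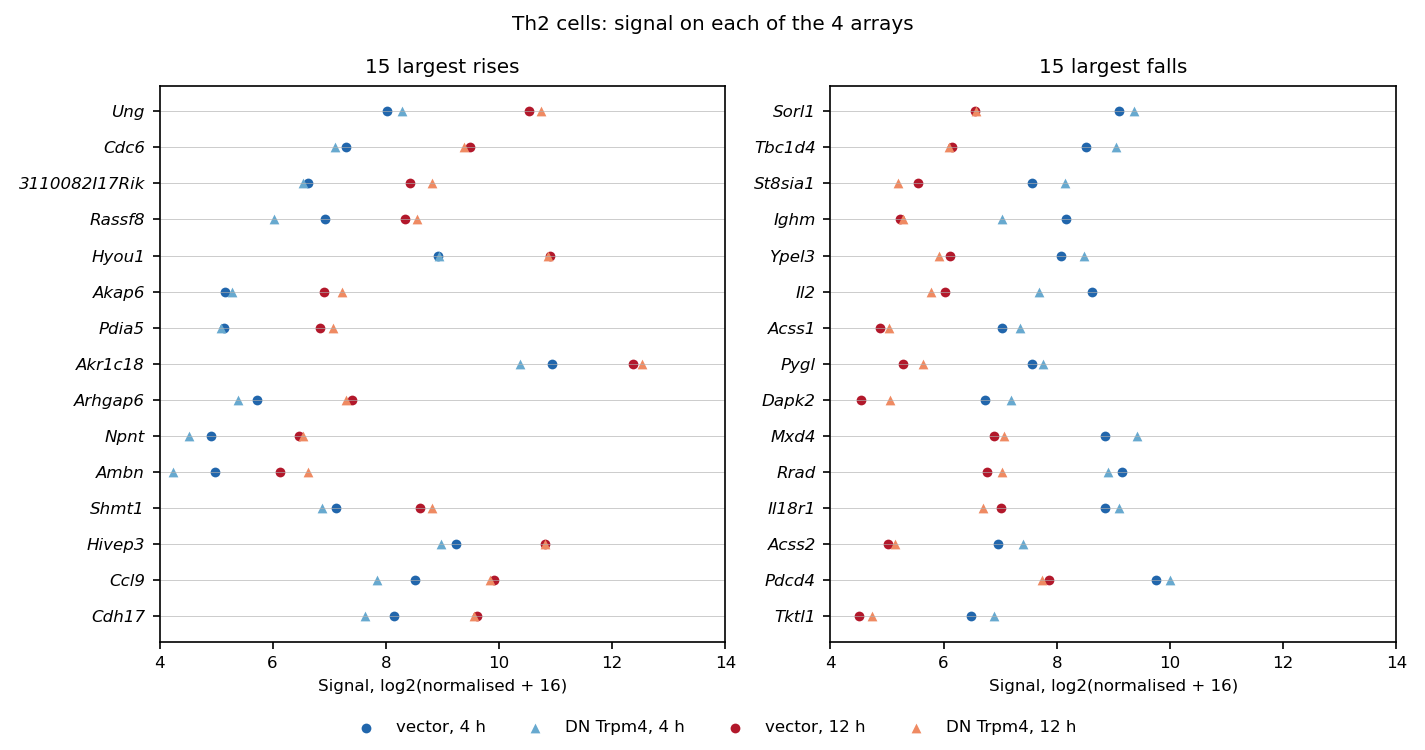
The signal on each of the 4 arrays is shown for the 15 largest rises (left) and the 15 largest falls (right), on a log2 axis of normalised signal plus 16, with circles for vector, triangles for DN Trpm4, blue shades for 4 h and red shades for 12 h. In every row both 12 h points lie on the same side of both 4 h points, which the choice of genes nearly fixes.

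Genes of DNA replication and S phase formed the group with the most rises. Of 40 tested members, 29 rose, 0 fell and 40 lay above 0, with a median of 0.87, beside 4.77% higher and a median of 0.02 over all 10814 genes tested. Both 12 h arrays lay above both 4 h arrays for 38 of the 40, against 27.2% of all probe sets. Among the helicase subunits, Mcm2 read 10.96 and 10.89 at 12 h and 9.57 and 9.51 at 4 h (1.39, adjusted p = 0.00072), and Mcm3 9.29 and 9.17 against 8.03 and 7.76 (1.33). Mcm5 rose by 1.14, and Mcm10, which helps activate the helicase, by 1.20, from 7.04 and 7.16 to 8.22 and 8.38. Gins1, a subunit of the GINS complex that travels with the helicase, rose by 1.19. Dtl, the ubiquitin ligase adaptor that marks Cdt1 for destruction, read 8.76 and 8.72 against 7.15 and 7.10 (1.61, adjusted p = 0.00028). Each of these genes was separated between the times by more than the gap between the viruses. The following members lie outside the naming rule and were chosen after their values were seen. The other helicase subunits Mcm4 (1.12), Mcm6 (0.76) and Mcm7 (0.70) rose as well, as did the G1/S cyclins Ccne1 (1.10) and Ccne2 (1.06), the origin proteins Orc1 (1.07) and Orc6 (0.98), and Cdt1 (0.85). Enzymes of the fork and of nucleotide supply also rose: Pold1 (1.13), Fen1 (0.98), Tyms (0.88), Rrm2 (0.79) and Pole (0.77). The clamp Pcna (0.41, adjusted p = 0.21), the ligase Lig1 (0.01) and E2f1 (0.25) did not pass. With no filter on dim probe sets, 14 of the 40 passed, and with a pseudocount of 1, 19.

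E2F factors are known to bind near the start sites of replication genes. The 250 bases before each start in a RefSeq table (GRCm38.p6, 32851 windows of 27025 genes) were searched on both strands for 7 motifs, among them 2 forms of the E2F motif, TTTGGCGC and TTTCGCGC. Either form was in 6 of 27 windows of replication genes that rose (22.2%: Dtl, Mcm5, Mcm6, Orc1, Rfc3 and Uhrf1), in 7 of 40 windows of all replication genes tested (17.5%), in 0.654% of all windows and in 1.25% of the windows of genes tested. It was in 2.70% of the windows of all genes higher at 12 h and in 0.113% of those of genes lower at 12 h. Windows of 18 of 19 genes in the replication, ER, early and cytokine groups were inspected, and 8 of those with a match are printed here because they show where it lies. So a match in the printed windows is what chose them. Uhrf1, a reader of hemimethylated DNA, was chosen after its value was seen (1.08, 9.26 and 9.54 against 8.16 and 8.49). Dtl, whose match ends at the start site, and Uhrf1 are shown with the E2F match in capitals, 5′ to 3′ on the strand of the gene. The match starts 8 bases before the start of Dtl and 185 bases before 1 of the starts of Uhrf1.
Dtl, chr1:191575545-191575794, minus strand: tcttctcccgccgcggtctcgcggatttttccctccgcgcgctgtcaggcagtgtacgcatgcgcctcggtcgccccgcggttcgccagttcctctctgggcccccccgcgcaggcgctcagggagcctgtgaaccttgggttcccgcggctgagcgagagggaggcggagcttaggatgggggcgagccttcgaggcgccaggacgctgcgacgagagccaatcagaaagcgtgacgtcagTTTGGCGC
Uhrf1, chr17:56304063-56304312, plus strand: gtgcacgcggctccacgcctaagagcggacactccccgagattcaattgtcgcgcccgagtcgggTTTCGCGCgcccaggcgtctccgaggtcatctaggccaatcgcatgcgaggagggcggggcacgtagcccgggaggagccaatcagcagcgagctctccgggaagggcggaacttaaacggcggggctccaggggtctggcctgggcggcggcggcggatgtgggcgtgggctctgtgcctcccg

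The genes of mitosis and G2/M did not follow. Of 34 tested, 1 rose and 1 fell (2.94% each, beside 4.77% and 6.19% of all genes tested). Of the 34, 18 lay above 0 and the median was 0.04. Cdk1, the mitotic kinase, read 9.55 and 9.96 at 12 h and 9.02 and 9.06 at 4 h (0.72, adjusted p = 0.034). Nusap1, a spindle protein, read 8.40 and 8.20 against 8.95 and 9.05 (-0.70, adjusted p = 0.035). Cyclin Ccnb2 (-0.54), the kinase Aurka (0.34) and Pttg1 (-0.36, securin) did not pass. Other Pttg1 probe sets stood at 0.52 and -0.265, so they disagreed in direction. The direction of the median depended on scaling, at -0.04 with median centring and -0.06 with the deposited signal. The difference between the replication and mitosis groups was not tested. Among 20 tested G1 cyclins, CDK inhibitors and p53 targets, 3 rose and 3 fell (15% each), with 1 rise without the Th2 DN Trpm4 4 h array. The phosphatase Cdc25a (1.0), Cdk4 (0.76) and Cdk2 (0.67) rose. Trp53inp1 (-1.77), Gadd45g (-1.11) and Gadd45b (-0.71), genes induced by p53 or by stress, fell.

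Genes of the unfolded protein response and ER secretion formed the group with the next highest share of rises. Of 29 tested, 17 rose, 0 fell and 28 lay above 0, with a median of 0.70, beside 4.77% of all genes tested that rose. For 27 of the 29, both 12 h arrays lay above both 4 h arrays, against 27.2% of all probe sets. Besides Hyou1, the disulfide isomerase Pdia6 read 10.71 and 11.20 at 12 h and 9.68 and 9.12 at 4 h (1.55, adjusted p = 0.0014). Hsp90b1, the ER form of the HSP90 chaperone, read 11.24 and 11.003 against 9.86 and 9.74 (1.32, adjusted p = 0.00097). Creld2 read 10.46 and 10.69 against 9.16 and 8.97 (1.51), and Manf, a secreted ER stress protein, 11.79 and 12.07 against 10.60 and 10.28 (1.49). In these genes the times did not overlap, and the DN Trpm4 4 h array was the lowest for Pdia6, Hsp90b1, Creld2 and Manf. The COPII coat subunit Sec24d rose by 1.33, Sdf2l1 by 1.23 and Pdia4 by 1.12. Chosen after their values were seen, the chaperone Hspa5 (BiP) rose by 0.88, from 12.32 and 11.61 to 12.78 and 12.91, calreticulin (Calr) by 0.97, and the translocon subunit Sec61a1 by 0.70. The sensors and factors that drive the response did not pass: Atf6 stood at 0.71 (adjusted p = 0.10), Xbp1 at 0.06 and Ern1 at -0.04. Over the alternatives the difference of Atf6 ran from 0.075 to 1.34, so its size depended on the arrays and settings used. Without the Th2 DN Trpm4 4 h array the count of rises was 9 in place of 17. It was 6 of 30 tested with no filter on dim probe sets and 9 of 29 with a pseudocount of 1.

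The ER stress response element, CCAAT and CCACG with any 9 bases between them, is the site through which ATF6 is known to act. It was in 7 of 15 windows of ER genes that rose (46.7%: Calr, Canx, Creld2, Hsp90b1, Hspa5, Pdia6 and Syvn1), in 8 of 25 windows of those tested (32%) and in 37 of all 32851 windows (0.113%). It was in 1.43% of the windows of genes higher at 12 h and in 0.227% of those of genes lower at 12 h. Of the matching windows, 4 follow, with the element on either strand in capitals. In Hspa5 it starts 65 bases before the start site, in Creld2 126 and in Calr 162 bases before it, and Hsp90b1 has it at 212 and again at 107 bases.
Hspa5, chr2:34771840-34772089, plus strand: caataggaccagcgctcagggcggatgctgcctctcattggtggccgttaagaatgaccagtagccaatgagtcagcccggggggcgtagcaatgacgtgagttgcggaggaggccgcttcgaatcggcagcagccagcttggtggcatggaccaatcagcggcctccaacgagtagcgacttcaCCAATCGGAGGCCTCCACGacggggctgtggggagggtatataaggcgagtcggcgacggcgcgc
Hsp90b1, chr10:86705445-86705694, minus strand: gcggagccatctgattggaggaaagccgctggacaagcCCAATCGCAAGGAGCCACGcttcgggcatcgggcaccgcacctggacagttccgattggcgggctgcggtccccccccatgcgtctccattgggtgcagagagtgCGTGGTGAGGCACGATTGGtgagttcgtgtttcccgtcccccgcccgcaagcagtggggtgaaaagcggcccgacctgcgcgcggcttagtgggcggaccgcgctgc
Creld2, chr15:88819396-88819645, plus strand: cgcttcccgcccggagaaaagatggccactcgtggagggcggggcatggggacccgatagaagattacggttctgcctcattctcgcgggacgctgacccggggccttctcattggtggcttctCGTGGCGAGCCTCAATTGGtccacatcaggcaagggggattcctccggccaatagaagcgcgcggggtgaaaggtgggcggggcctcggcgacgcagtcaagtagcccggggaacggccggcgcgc
Calr, chr8:84846932-84847181, minus strand: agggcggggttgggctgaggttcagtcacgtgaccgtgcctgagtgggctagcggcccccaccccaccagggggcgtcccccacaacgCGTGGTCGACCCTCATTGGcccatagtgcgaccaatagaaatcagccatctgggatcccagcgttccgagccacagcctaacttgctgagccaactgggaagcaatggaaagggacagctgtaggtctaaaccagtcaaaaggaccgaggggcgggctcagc

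**Figure D3:**
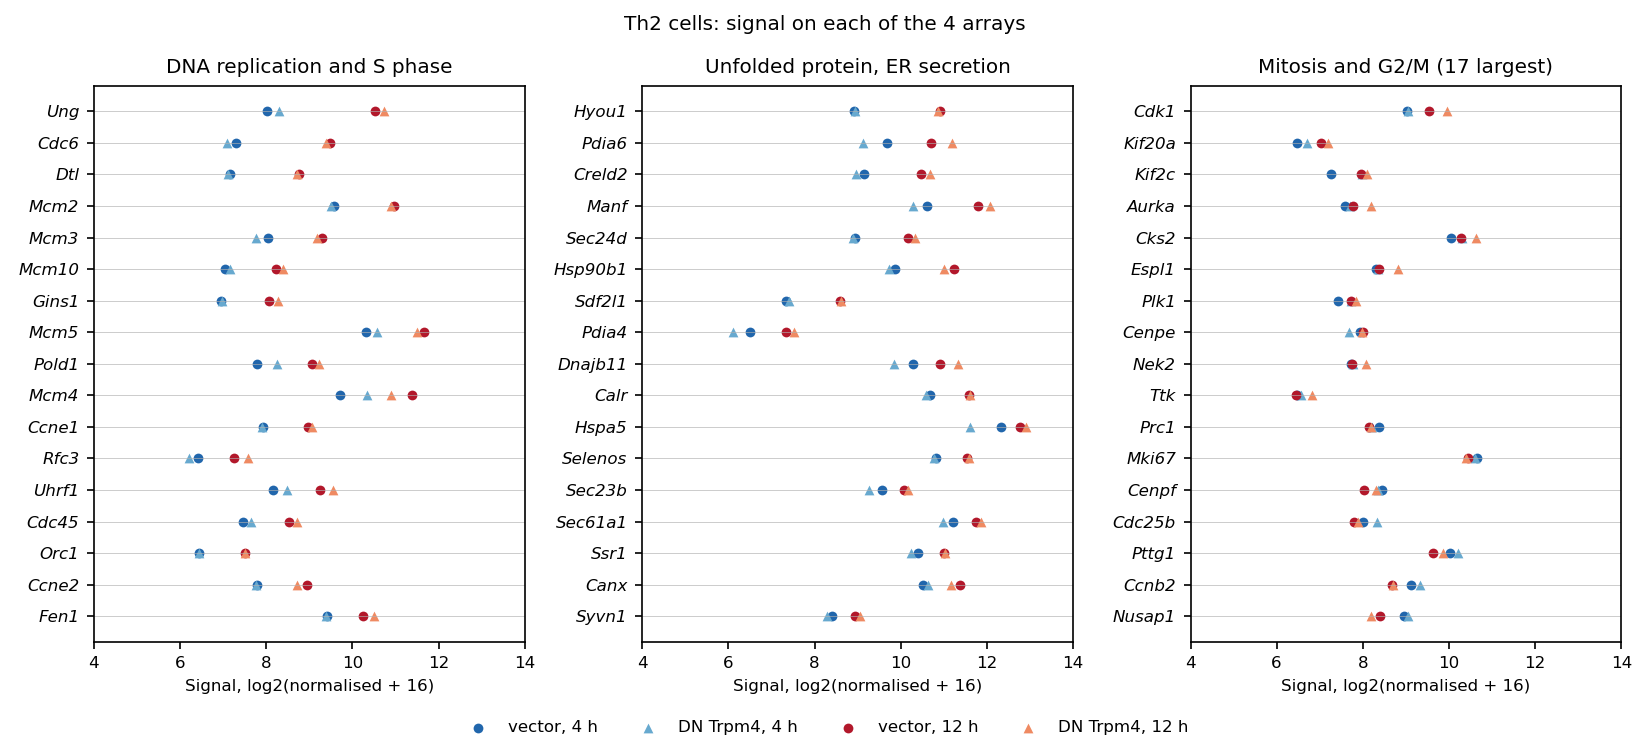
The signal on each array is shown for the 17 replication genes with the largest called changes, the 17 called ER genes and the 17 mitosis genes with the largest absolute difference, on a log2 axis of normalised signal plus 16, with circles for vector, triangles for DN Trpm4, blue shades for 4 h and red shades for 12 h. In the first 2 panels the 12 h points lie to the right of the 4 h points, which the choice of called genes nearly fixes. The mitosis panel holds genes whether called or not, and there the 12 h points lie on either side.

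Among genes that make and turn over protein, each count of rises stands beside 4.77% of all genes tested. Of 26 tested translation initiation and aminoacyl-tRNA synthetase genes, 7 rose and 0 fell, with a median of 0.56. The 7 were all synthetases, which charge tRNAs, and Mars1 (methionine) read 8.85 and 8.60 at 12 h and 7.47 and 7.71 at 4 h (1.13, adjusted p = 0.0035). Wars (tryptophan) rose by 1.09 and Yars (tyrosine) by 0.87. Of 42 ribosome biogenesis genes, 7 rose, with Nhp2 (0.97) and Rrp12 (0.93) highest, and 40 lay above 0 around a median of 0.35. Of 30 proteasome subunits, 5 rose, with a median of 0.38, and Psmc5 (0.80) and Psmb7 (0.79) moved most. Of 28 genes of amino acid transport and synthesis, 6 rose and 1 fell. The serine synthesis enzymes Phgdh (1.10) and Psat1 (0.85), asparagine synthetase Asns (1.02) and the mitochondrial folate enzymes Mthfd1l (0.91) and Mthfd2 (0.89) rose. Ddit4, an inhibitor of mTOR, fell by 1.10. Without the Th2 DN Trpm4 4 h array the counts of rises were 2 for translation, 1 for ribosome biogenesis, 1 for the proteasome and 3 for amino acid genes. With no filter on dim probe sets 0 passed in each of these 4 groups, and with a pseudocount of 1 the counts were 2, 1, 0 and 1. The proteasome count was also 0 with median centring.

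Of 20 tested heat shock and folding genes of the cytosol and mitochondria, 5 rose (25%), 2 fell (10%) and 13 did not pass. Over all genes tested, 4.77% rose and 6.19% fell. The mitochondrial chaperones Hspd1 (0.97), Hspa9 (0.88) and Hspe1 (0.67) and the HSP90 cochaperones Fkbp4 (0.90) and Ahsa1 (0.66) rose. The stress-induced Hspa1b fell by 1.29, from 8.16 and 7.79 at 4 h to 6.42 and 6.95 at 12 h, and Hspa1a by 0.99. Hspa1a lay below the array median on both 12 h arrays (5.02 with vector and 4.66 with DN Trpm4). It was tested through its 4 h signal alone (6.20 and 5.46), so its direction is tied to the filter. Hspa1a and Hspa1b are near-identical copies, so their probe sets may share signal. Under 16 alternatives the list held 0 to 8 rises and 0 to 2 falls, with 2 rises without the Th2 DN Trpm4 12 h array, 1 without the Th2 DN Trpm4 4 h array, and 1 fall without the Th2 vector 4 h array.

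Immediate early transcription factors were lower at 12 h. Of 27 tested, 13 fell, 0 rose and 26 lay below 0, with a median of -0.65, beside 6.19% of all genes tested. Both 12 h arrays lay below both 4 h arrays for 23 of the 27, against 26.9% of all probe sets. Atf3, a stress-induced factor, read 6.62 and 7.01 at 12 h and 9.03 and 8.62 at 4 h (-2.01, adjusted p = 0.00018). The nuclear receptor Nr4a3 read 9.59 and 9.63 against 11.96 and 11.22 (-1.98, adjusted p = 0.00019), and Fos 8.20 and 8.40 against 10.49 and 10.05 (-1.97, adjusted p = 0.00016). In all 3 the fall was larger in the vector pair than in the DN Trpm4 pair, for Fos by 2.29 against 1.66, and the difference between the pairs was not tested. Nr4a1 fell by 1.59, Egr3 by 1.40, Nr4a2 by 1.19, Irf8 by 1.18 and Fosl2 by 0.98. Other probe sets stood at -0.65 and -0.06 for Nr4a3, -1.29 to 0.18 for Nr4a2 and -0.46 for Fosl2. Chosen after their values were seen, Myc fell by 0.76 and Irf4 by 0.83, while Egr1 (-0.07), Egr2 (-0.48), Jun (-0.31) and Junb (-0.46) did not pass. With no filter on dim probe sets 5 of the 27 passed, and with a pseudocount of 1, 8.

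Of 16 NF-kappaB genes tested, 6 fell (37.5%, beside 6.19% of all genes tested), 0 rose and 10 did not pass, with a median of -0.44. With no filter on dim probe sets 2 fell. Most of the 6 are feedback inhibitors or targets. Nfkbid, a nuclear inhibitor protein, read 8.48 and 8.62 at 12 h and 10.84 and 10.08 at 4 h (-1.91, adjusted p = 0.00031). The adaptor Traf1 fell by 1.23, the inhibitor Nfkbie by 1.08, the deubiquitinase Tnfaip3 (A20) by 1.02, Bcl3 by 0.85 and the subunit Rel by 0.79. Rela (-0.57) did not pass here, but passed under some alternatives. Of 15 NFAT and calcineurin genes, 2 fell (13.3%) and 1 rose (6.67%, beside 4.77% of all genes tested). The falls were the diacylglycerol kinases Dgka (-1.40) and Dgkz (-0.70), which damp T cell receptor signals. The rise was the calcineurin regulatory subunit Ppp3r1 (0.65), which did not pass under every alternative. Another probe set of Dgkz (-0.24) and another of Ppp3r1 (0.04) did not pass. Of 16 MAP kinase phosphatases and related inhibitors, Dusp14 (-0.73) and Dusp10 (-0.69) fell (12.5%), a count that ran from 0 to 4 over 16 alternatives and was 0 without the Th2 vector 12 h array, 4 without the Th2 DN Trpm4 12 h array and 1 without either 4 h array.

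The start of Nr4a3 holds several copies of the cAMP response element core TGACGT. The core was in 3 of 12 windows of early factors that fell (25%: Atf3, Fos and Nr4a3) and in 8 of 27 windows of all early factors tested (29.6%), so it was no more frequent in those that fell. It was in 6.47% of all windows and in 10.1% of those of genes tested. It was in 7.94% of the windows of genes lower and 12.5% of those of genes higher at 12 h, and in 5 of 15 windows of ER genes that rose (33.3%). The NFAT core GGAAA was in all 11 windows of cytokines that changed, but also in 14 of 15 windows of all such cytokines tested (93.3%) and in 55.6% of all windows. The other motifs searched, AP-1 (TGANTCA), forkhead (GTAAACA) and the E-box CACGTG, were in 5.44%, 2.72% and 7.94% of the windows of genes lower at 12 h. They were in 3.33%, 2.22% and 10.5% of those of genes higher at 12 h, in 4.52%, 2.25% and 8.5% of those of genes tested and in 6.75%, 3.17% and 6.02% of all windows. The share of genes lower at 12 h thus lay below that of all windows and above that of genes tested for AP-1 and forkhead, and the reverse for the E-box. Nr4a3 and Il2 are shown because each holds several copies and fell by about 2 log2 units, with the TGACGT core in capitals in Nr4a3 (231, 205 and 147 bases before the start) and the NFAT core of either strand in Il2 (137 and 47 bases before it).
Nr4a3, chr4:48045055-48045304, plus strand: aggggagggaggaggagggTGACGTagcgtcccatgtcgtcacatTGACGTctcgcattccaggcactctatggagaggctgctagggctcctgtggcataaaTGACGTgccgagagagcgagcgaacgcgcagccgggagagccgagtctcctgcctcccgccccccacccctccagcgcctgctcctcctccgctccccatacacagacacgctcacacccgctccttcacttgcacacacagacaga
Il2, chr3:37125955-37126204, minus strand: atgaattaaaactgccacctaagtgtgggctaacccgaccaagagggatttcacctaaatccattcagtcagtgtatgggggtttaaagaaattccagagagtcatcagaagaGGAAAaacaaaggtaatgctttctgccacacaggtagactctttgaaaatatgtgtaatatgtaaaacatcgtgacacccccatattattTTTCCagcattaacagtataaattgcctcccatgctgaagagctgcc

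The type 2 interleukins that define Th2 cells showed no common direction. Of 8 tested, 2 rose (25%, beside 4.77% of all genes tested) and 1 fell (12.5%, beside 6.19%). Their median of 0.16 was -0.32 in the vector pair and 0.64 in the DN Trpm4 pair. Interleukin 5, which drives eosinophils, read 11.51 and 12.05 at 12 h and 10.90 and 9.47 at 4 h (1.60, adjusted p = 0.0087), so most of its rise lay in the DN Trpm4 pair. Interleukin 24 read 8.29 and 8.95 against 7.91 and 7.01 (1.16, adjusted p = 0.021), with 0.38 and 1.94 in the 2 pairs. Interleukin 31, an itch cytokine, read 4.80 and 5.52 against 6.91 and 6.14 (-1.37, adjusted p = 0.0081). Without the Th2 DN Trpm4 4 h array 0 of the 8 rose and 1 fell. Interleukin 4 read 11.15 and 11.60 at 12 h and 12.23 and 11.58 at 4 h, which overlap (-0.53, adjusted p = 0.21). Il13 (0.29), Il10 (0.16), Il6 (0.16) and Il3 (0.15) did not pass either, and Il3 moved by -0.70 and 0.99 in the 2 pairs.

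Of 15 other T cell cytokines tested, 7 fell (46.7%, beside 6.19% of all genes tested) and 2 rose (13.3%, beside 4.77%), with a median of -0.48. After Il2, interleukin 21 read 8.98 and 8.70 at 12 h and 11.28 and 10.46 at 4 h (-2.03, adjusted p = 0.00011). Lymphotoxin beta (Ltb) fell by 1.48 and tumour necrosis factor (Tnf) by 1.35, from 11.11 and 10.71 to 9.59 and 9.54. Il16 (-1.23), Ebi3 (-0.99) and Csf1 (-0.96) also fell. Other probe sets stood at 0.30 and -0.49 for Il16 and at -1.05, -0.46 and -0.46 for Csf1. Interferon gamma rose: Ifng read 10.70 and 10.59 at 12 h against 9.94 and 9.48 at 4 h (0.93, adjusted p = 0.0087). Mif, chosen after its value was seen, rose by 0.69. Neither Ifng nor Mif passed without the Th2 DN Trpm4 4 h array. Among 10 chemokines, 4 rose (40%, beside 4.77%) and 1 fell (10%, beside 6.19%). Besides Ccl9, the lymphotactin Xcl1 read 8.58 and 8.58 against 7.09 and 6.99 (1.54), and the inflammatory chemokines Ccl3 (1.11) and Ccl5 (1.06) rose. The neutrophil chemokine Cxcl2 fell by 1.85, from 8.88 and 8.09 to 6.54 and 6.73.

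**Figure D4:**
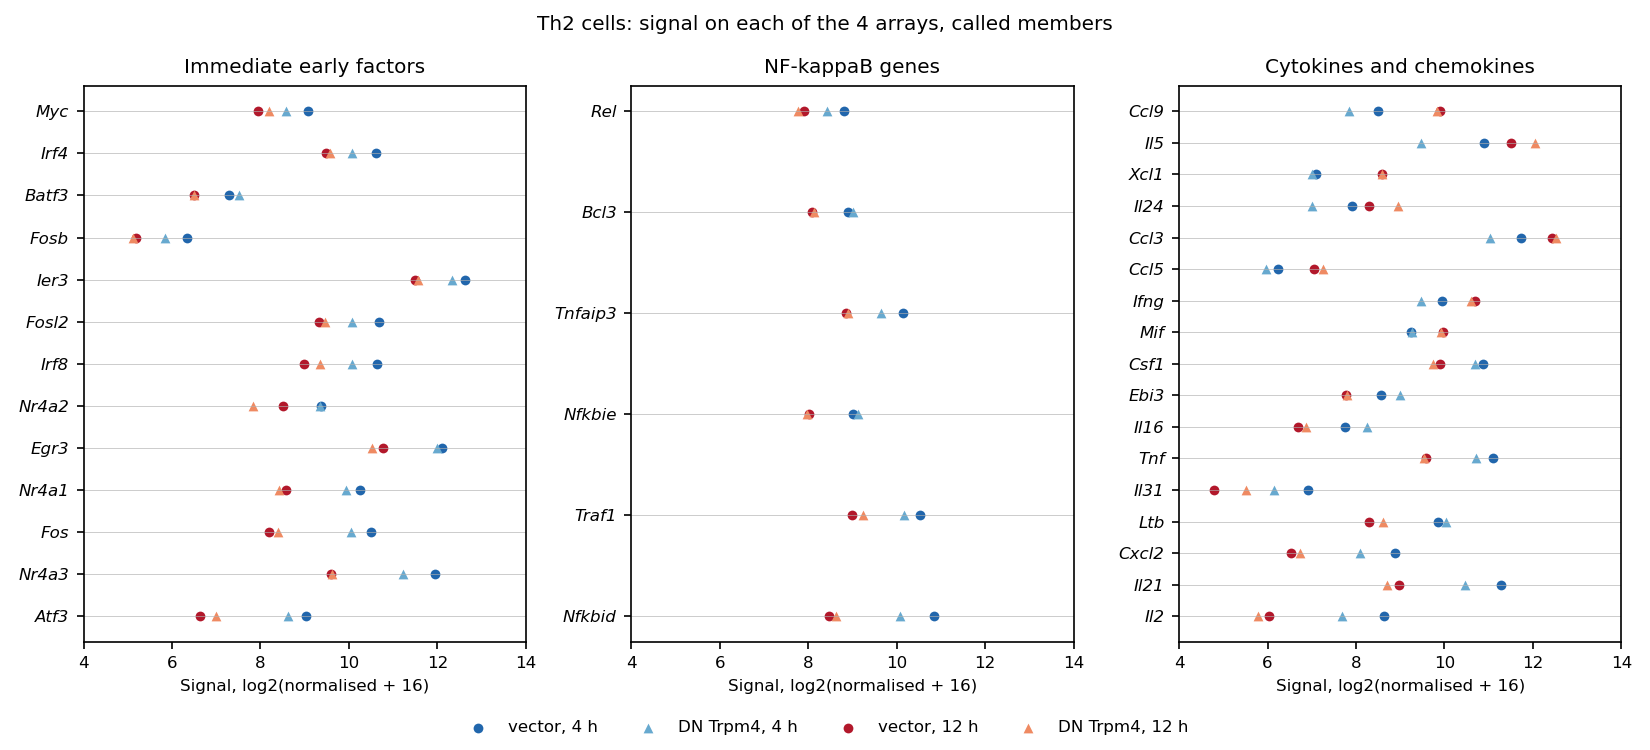
The signal on each array is shown for the called immediate early factors, NF-kappaB genes, and cytokines and chemokines, on a log2 axis of normalised signal plus 16, with circles for vector, triangles for DN Trpm4, blue shades for 4 h and red shades for 12 h. The first 2 panels hold falls alone, and the cytokine panel runs from Ccl9 (1.70) at the top to Il2 (-2.26) at the bottom.

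Lists of receptors and signalling genes are given beside 6.19% of all genes tested that fell and 4.77% that rose. Of 20 STAT, JAK and SOCS genes tested, 6 fell (30%) and 0 rose. The feedback inhibitor Socs3 read 9.16 and 9.07 at 12 h and 10.75 and 10.77 at 4 h (-1.64, adjusted p = 0.00026), and Jak2 and Stat4 both fell by 1.29. Bcl6, the follicular helper factor, fell by 0.93. Of 20 cytokine receptors, 3 fell (15%): Il18r1, Tgfbr2 (-0.83, with another probe set at -0.07) and Il10ra (-0.82). Of 15 TNF superfamily genes, 4 fell (26.7%) and 1 rose. The ligand Tnfsf9 fell by 1.68 while its receptor Tnfrsf9 (4-1BB) rose by 1.07, from 10.41 and 9.62 to 10.90 and 11.27. The ligands Tnfsf11 (RANKL, -1.14) and Tnfsf14 (LIGHT, -0.83) also fell. Of 18 costimulatory and inhibitory receptors, Slamf1 (-1.21), Cd160 (-1.01) and the early activation marker Cd69 (-0.90) fell (16.7%). Of 12 chemoattractant receptors, Ccr8 (-1.16), a Th2-associated receptor, and Cxcr3 (-0.96) fell (16.7%). Most members of each of these 5 lists did not pass. Over 16 alternatives the falls numbered 3 to 8 for the STAT list, 1 to 6 for cytokine receptors, 2 to 7 for the TNF superfamily, 1 to 3 for costimulatory and 1 to 4 for chemoattractant receptors. Without the Th2 vector 4 h array they were 3 for the STAT list and 2 for the TNF superfamily. The TNF count was 7 without the Th2 DN Trpm4 12 h array, and the chemoattractant count 4 without the Th2 vector 12 h array.

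Of 23 T cell receptor complex and proximal signalling genes, 5 fell (21.7%, beside 6.19% of all genes tested) and 22 lay below 0. The falls numbered 1 to 10 over 16 alternatives, with 1 under no filter on dim probe sets, 3 without the Th2 vector 4 h array and 2 without the Th2 DN Trpm4 4 h array. Rasgrp1, the Ras activator downstream of the receptor, fell by 1.12, Sla2 by 0.92, Prkcq (protein kinase C theta) by 0.79, Sh2d1a by 0.79 and Plcg1 by 0.72. Other probe sets stood at 0.06, -0.39 and -0.34 for Rasgrp1, -1.04 for Sla2 and 0.16 for Plcg1. Thy1 read 11.18 and 11.32 at 12 h and 11.75 and 11.98 at 4 h (-0.61, adjusted p = 0.057), and Cd3g stood at -0.57. Neither passed here, but each passed under some alternatives. The pan T cell sums given above were lower at 12 h on both arrays, and their part in these falls was not tested. Fewer T cells and less of these RNAs per cell cannot be told apart in bulk RNA. The lineage factors held 1 call in 19: Hlx, a cofactor of T-bet, fell by 1.01. Among them, Tbx21 (-0.40), Runx3 (-0.41) and Prdm1 (-0.47) did not pass.

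Of 19 quiescence and homing genes, 6 fell (31.6%, beside 6.19% of all genes tested) and 1 rose (5.26%, beside 4.77%). With no filter on dim probe sets or a pseudocount of 1, 3 fell. Pik3ip1, an inhibitor of phosphoinositide 3-kinase, read 6.14 and 5.95 at 12 h and 7.57 and 8.33 at 4 h (-1.90, adjusted p = 0.00035). Slfn1 fell by 1.46, Ms4a4b by 1.16, and the antiproliferative Btg2 (-0.83) and Tob1 (-0.72) fell as well. Bach2, a repressor that holds T cells in a resting state, rose by 0.91. Of 23 interferon response genes, 9 fell (39.1%, beside 6.19% of all genes tested) and 0 rose, with a median of -0.59. Rtp4 read 6.84 and 6.81 against 8.21 and 8.14 (-1.35, adjusted p = 0.00082), and Mx1 (-0.97), Rsad2 (-0.85), Isg20 (-0.79), Gbp3 (-0.77) and Irf1 (-0.69) fell. The group is thus a mix in which 14 of 23 did not pass. The count of falls was 1 with no filter on dim probe sets, 2 with a pseudocount of 1, 4 without the Th2 vector 4 h array and 5 without either the Th2 vector 12 h array or the Th2 DN Trpm4 4 h array.

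Genes of energy metabolism showed no single direction, and their counts stand beside 4.77% of all genes tested that rose and 6.19% that fell. Of 29 glycolysis and hypoxia genes, 5 rose (17.2%) and 2 fell (6.90%), against 1 and 1 without the Th2 DN Trpm4 4 h array. Pfkl, a phosphofructokinase, rose by 1.13, the lactate transporter Slc16a3 by 0.83 and Tpi1 by 0.72, while the prolyl hydroxylase Egln3 fell by 1.0 and the kinase Pdk1 by 0.72. Oxidative phosphorylation subunits held 1 rise in 29 (3.45%), Cycs (cytochrome c, 0.67), and a median of 0.05. Of 20 cholesterol synthesis genes, Idi1 (1.04) and Cyp51 (0.82) rose (10%). Of 17 genes of fatty acid synthesis and lipid export, 5 fell (29.4%) and 0 rose, and 3 fell without the Th2 DN Trpm4 4 h array. The cholesterol exporters Abcg1 (-1.83) and Abca1 (-0.98), targets of the liver X receptor as is Mylip (-0.83), fell with Acss2 and the desaturase Scd2 (-0.98). Another Abca1 probe set stood at -0.045 and did not pass. Abcg1 read 5.35 and 5.4 at 12 h and 7.09 and 7.31 at 4 h.

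Of 17 Bcl2 family genes, 1 rose and 1 fell (5.88% each, beside 4.77% and 6.19% of all genes tested). The survival gene Bcl2 read 9.09 and 9.0 at 12 h and 10.56 and 10.71 at 4 h (-1.60, adjusted p = 0.00033), and the death gene Bcl2l11 (BIM) 9.33 and 9.21 against 8.27 and 8.16 (1.06, adjusted p = 0.0036). The brightest probe set of the survival gene Mcl1, which stands for it in the list, did not pass (-0.52, adjusted p = 0.10), although 4 of its 6 probe sets fell, by 0.74 to 0.89. Of 11 granzyme and cytotoxic granule genes, 4 rose (36.4%, beside 4.77% of all genes tested) and 1 fell. Granzyme B (Gzmb) read 12.08 and 12.39 against 11.01 and 10.20 (1.63, adjusted p = 0.0012), Serpinb6b rose by 1.35, perforin (Prf1) by 0.84 and Gzme by 1.08, with only 0.17 of Gzme in the vector pair. Ctsw fell by 0.97. Granzymes are a gene family whose probe sets may share signal, and the count of rises was 1 without the Th2 DN Trpm4 4 h array and 0 with no filter on dim probe sets. The summed CD8 T and natural killer cell markers read 332 and 389 at 12 h and 425 and 307 at 4 h, and their part in these rises was not tested.

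Of 19 calcium and potassium channel genes, 1 fell, the ER calcium pump Atp2a3 (-0.66, adjusted p = 0.041). That share, 5.26%, was below the 6.19% of all genes tested that fell, and 0 fell without any 1 of the Th2 DN Trpm4 12 h, vector 4 h or DN Trpm4 4 h arrays. Atp2a2 (0.59), Orai1 (-0.50), Stim1 (-0.46) and Trpm4 (0.21) did not pass. Of 31 actin, integrin and motility genes, 4 fell (12.9%) and 1 rose, and with no filter on dim probe sets 1 fell. The integrin chain Itgb3 read 6.29 and 7.06 at 12 h and 8.52 and 8.15 at 4 h (-1.66), the selectin ligand Selplg fell by 1.36, Itgb7 by 0.96 and the myosin Myh9 by 0.70. Vinculin (Vcl), which links integrins to actin, rose by 1.08, from 8.68 and 8.46 to 9.70 and 9.61.

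**Figure D5:**
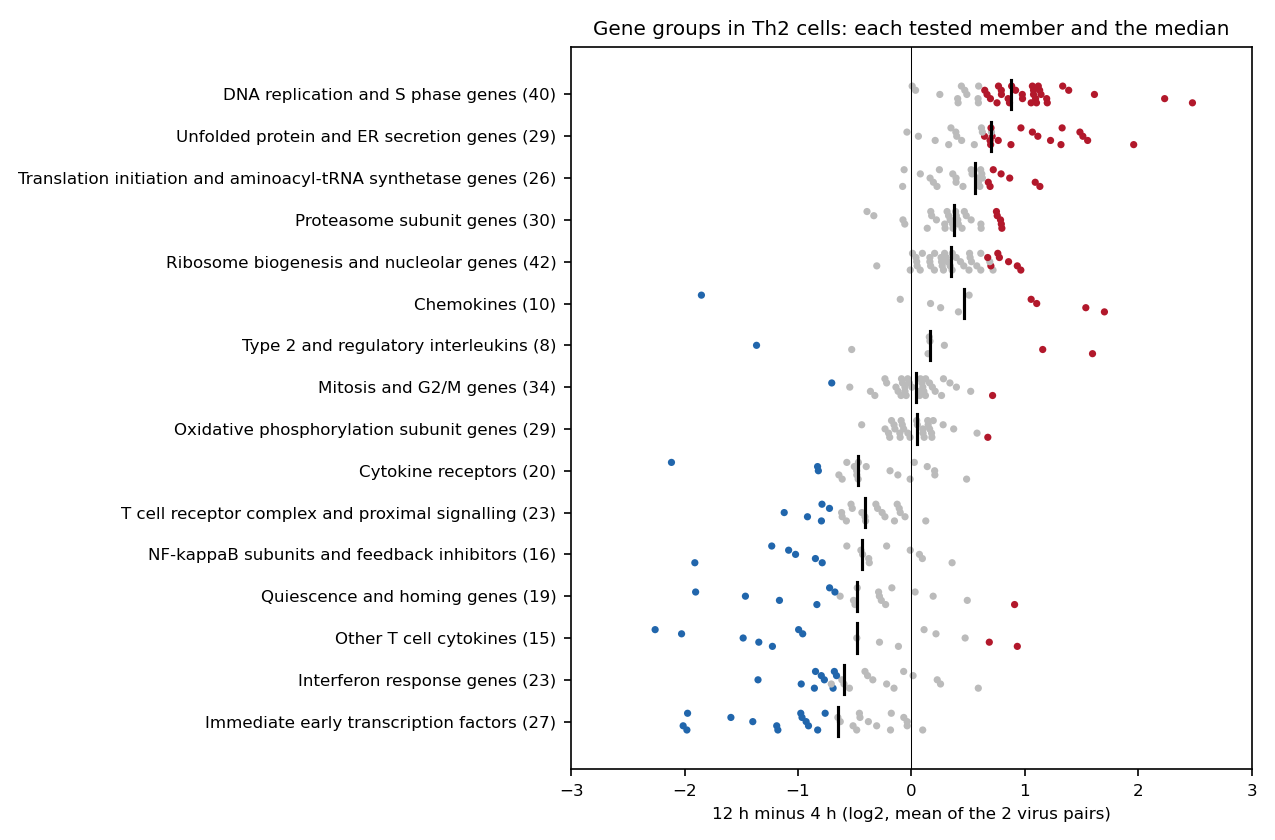
Each point is the log2 difference between 12 h and 4 h (mean of the 2 virus pairs, x axis) of 1 tested member of 16 gene groups, with the number tested in parentheses, red for called higher, blue for called lower, grey for not called and a black bar at the median. The replication group (median 0.87) and the ER group (0.70) lie to the right of 0, the mitosis group around it (0.04), and the immediate early factors (-0.65) to the left.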

How the data were processed

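The authors deposited 1 linear intensity for each of 45101 probe sets on each of 14 arrays, 1 array per condition. Trizol-extracted RNA carried a biotin label and was run by the Affymetrix protocol, per the labels' protocols. The steps that summarised and scaled the probes are not given in the sources used here. Deposited totals of the 4 arrays were 7602019 to 8706950, with medians of 27.08 to 27.84. The 64 control probe sets were left out, 34958 probe sets had 1 gene in the platform annotation, and 932 with several genes stayed unnamed.

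Quantile normalisation covered the 14 arrays, and 16 was added before log2, which sets a floor of 4. A log2 difference is thus on the log2(value + 16) scale, which understates changes of dim transcripts. Probe sets above the array median on at least 2 of the 4 arrays were tested (23194, for 10814 genes) with limma 3.58.1 (lmFit, then eBayes; R 4.3.3). A dim probe set can pass this filter through the arrays of a single time, which ties its direction to the filter. Virus was a fixed block, which left 1 residual degree of freedom beside 12.37 of the prior. The number of arrays limits the precision. The fit was tested on simulated data.

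The members, 45 gene lists (1 probe set per gene, that of highest mean) and tests were chosen with earlier results of these data known. Lists were described by counts and medians, with no test. Named genes were the 15 largest called changes per direction, both study targets (Trpm4, Thy1) and, from each list, up to 8 members with the largest difference. Genes named beyond these were chosen after their values were seen, though not each is marked so. Alternatives were other scalings, pseudocounts of 1 and 64, other filters, eBayes with a trend or robust, no virus block, 1 probe set per gene, and each array or pair left out. With an array left out, time and virus together leave no residual degree of freedom. Those fits therefore had no virus block, and their counts mix the loss of an array with a change of model.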

Additional observations from a re-analysis of the deposited data

Results flagged for a closer look

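In 3 probe sets the vector and DN Trpm4 pairs differed by at least 2-fold in opposite directions between 12 h and 4 h. Fzd5, a Wnt receptor, moved by -1.07 in the vector pair and 1.22 in the DN Trpm4 pair. Gnaq, the G protein subunit alpha q, moved by 1.46 and -1.40. A probe set with no gene name here moved by 1.17 and -1.78. With 1 array per condition these differences were not tested, and the limit of 2-fold was chosen with the data known.

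Among the gene lists with at least 5 tested members, 4 had medians of opposite sign in the pairs, also not tested. The type 2 and regulatory interleukins stood at -0.32 in the vector pair and 0.64 in the DN Trpm4 pair, the Th2 markers, which share genes with them, at -0.17 and 0.15, and the CD8 T and natural killer cell markers at -0.15 and 0.23. The G1 cyclins, CDK inhibitors and p53 targets stood at 0.036 and -0.014, which is close to 0 in both.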

How the results depend on the processing

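Of 185 called probe sets of genes named above, 80 passed under every alternative with a test, and so did 29 of the 30 largest changes. The exception was Ambn, whose adjusted p reached 0.052. With no filter on dim probe sets 105 of the 185 did not pass, with a pseudocount of 1 67, and without the Th2 DN Trpm4 4 h array 57. With quantile normalisation over the 4 arrays alone, 23 of the 185 did not pass. The calls numbered 363 higher and 612 lower with a pseudocount of 1, and 140 and 259 with no filter. Leaving out 1 array gave 359 to 1043 higher and 592 to 1175 lower, the lowest without the Th2 DN Trpm4 4 h array, and the lone array of an arm was then assumed to vary like the others. The fit with no replicate block, which leaves out the pairing by virus, gave 1191 and 1420, and moved no count by over 1.5 times. The labels give no replicate numbers beyond the virus. The count of probe sets 2-fold higher in both pairs was 58 with median centring, 55 with the deposited signal, 196 with a pseudocount of 1, 49 with a pseudocount of 64 and 72 with 1 probe set per gene. The count 2-fold lower was 362 and 94 with pseudocounts of 1 and 64. A single pair held 268 to 505 higher and 474 to 501 lower.

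Of the 45 lists and all genes together, 13 medians changed sign under some alternative, and those of the replication, ER, immediate early and NF-kappaB groups did not. With median centring and the deposited signal the mitosis median was -0.043 and -0.059, oxidative phosphorylation -0.007 and -0.023, Th2 markers -0.051 and -0.066, Lig1 -0.036 and -0.051 and Xbp1 -0.001 and -0.017. With no filter Th2 markers stood at -0.095, mast cell markers at -0.018 and erythroid markers at 0.028. With the filter at the 75th percentile CD8 and natural killer markers stood at -0.19 and Treg and Th17 markers at -0.072. With the filter over 14 arrays the G1 list stood at 0.006, erythroid markers at 0 and fibroblast markers at 0.005. Leaving out an array or a pair gave these ranges: B cell markers -0.086 to 0.34, mast cell markers -0.015 to 0.37, type 2 interleukins -0.32 to 0.64, the G1 list -0.078 to 0.043, CD8 and natural killer markers -0.17 to 0.23, erythroid markers -0.49 to 0.068, Th2 markers -0.17 to 0.15, mitosis -0.024 to 0.12, oxidative phosphorylation -0.024 to 0.10, Treg and Th17 markers -0.062 to 0.27, costimulatory receptors -0.18 to 0.001 and macrophage markers -0.19 to 0.002. Among genes the ranges were Egr1 -0.43 to 0.29, Ern1 -0.16 to 0.087, Il10 -0.18 to 0.51, Il3 -0.70 to 0.99, Il6 -0.46 to 0.77, Lig1 -0.012 to 0.026, Xbp1 -0.027 to 0.15 and a second Shmt1 probe set -0.19 to 0.74. The causes were not tested. Low signal limits dim transcripts, since values near the floor understate changes.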

Other observations

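Some groups not described above held few changes, given beside 6.19% of all genes tested that fell. Of 12 genes of RNA decay, 1 fell: Zfp36l1, which destabilises AU-rich mRNAs, read 9.96 and 9.70 at 12 h and 11.003 and 10.72 at 4 h (-1.03, limma adjusted p = 0.0043). Its relatives Zfp36 (-0.42) and Zfp36l2 (-0.19) did not pass. Of 14 genes of steroid synthesis and Th2-restricted expression, 2 fell: Plac8 (-1.17), from 12.39 and 12.33 to 11.16 and 11.21, and Ccr8. Cyp11a1, the first enzyme of steroid synthesis, read 11.87 and 12.02 at 12 h and 12.05 and 11.42 at 4 h, which overlap (0.21, adjusted p = 0.62).

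Among the Treg and Th17 markers, Rora fell by 1.0 and Nrp1 rose by 0.86. The vector and DN Trpm4 arrays of 1 time differed by at least 2-fold in 63 probe sets at 12 h and 50 at 4 h, which has no replicate and no test. Over the whole comparison 14 called probe sets moved by under 0.3 in 1 of the pairs.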
